A study of Rattus norvegicus with 19 samples.

Results

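The genes described here build and remodel the extracellular matrix of the thymus, where T cells develop. They were chosen by name: collagen, laminin, matrix metalloproteinase (Mmp), tissue inhibitor of metalloproteinase (Timp), ADAMTS protease and Lox genes, with Fn1, Sparc, Eln, Fbn1, Dcn, Lum, Bgn and Postn. The rule found 73 of the 14629 genes that the arrays name, on 93 probes. Of these, 66 genes had a probe bright enough to be tested, and 47 were above background on all 19 arrays. The 7 that were not tested were Col9a3, Col4a4, Lama1, Mmp3, Mmp10, Mmp20 and Mmp27. The rule also takes in Loxhd1, which encodes a protein of hair cell stereocilia and no lysyl oxidase.

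The RNA came from whole thymus. The animals were Wistar females, aged 7 weeks according to the labels, gavaged once a day for 14 days. The control group received saline at 10 ml/kg (5 arrays). The other groups received corn oil, a common vehicle for oral dosing, at 2 ml/kg (5 arrays), 5 ml/kg (4 arrays) or 10 ml/kg (5 arrays). Saline was given at 10 ml/kg only, so liquid and volume differ together in the comparisons of 2 and 5 ml/kg with saline. No untreated animals are among the samples. The labels give 3 rats to a cage and number the samples as replicates. Nothing further says which animal each array came from, so p-values measure the spread between these samples.

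Fibrillar collagens (types I, III and V among others) are the tensile fibres of connective tissue, and in the thymus they lie mainly in the capsule, septa and vessel walls. Type IV collagen and laminins form basement membranes under epithelium and around vessels. Metalloproteinases and ADAMTS proteases cut these proteins, TIMPs inhibit the metalloproteinases, and lysyl oxidases cross-link collagen and elastin. In whole tissue, more cells of a type and more RNA per cell cannot be told apart.

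Promoter sequences are shown for 3 members, Timp1, Lamb3 and Col1a2. Timp1 and Lamb3 were higher at 10 ml/kg corn oil than in each other group in the fit of all arrays. Col1a2, the partner chain of Col1a1 in type I collagen, did not pass in that fit. The sequences are from RefSeq, build GRCr8, whose promoter table holds 51 of the 73 members, with no entry for Col1a1, Col3a1 or Mmp16. Each line gives the 250 bases before the annotated start, 5′ to 3′ on the strand of the gene, with capitals marking motif matches. Timp1 lies on the minus strand at chrX:3771123-3771372, Lamb3 on the plus strand at chr13:107362303-107362552 and Col1a2 on the plus strand at chr4:33518307-33518556.
Timp1: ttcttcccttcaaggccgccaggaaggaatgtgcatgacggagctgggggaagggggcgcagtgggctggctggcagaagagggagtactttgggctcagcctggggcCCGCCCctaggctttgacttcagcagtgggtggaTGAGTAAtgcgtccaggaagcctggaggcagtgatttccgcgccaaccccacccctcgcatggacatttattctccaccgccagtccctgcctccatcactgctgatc
Lamb3: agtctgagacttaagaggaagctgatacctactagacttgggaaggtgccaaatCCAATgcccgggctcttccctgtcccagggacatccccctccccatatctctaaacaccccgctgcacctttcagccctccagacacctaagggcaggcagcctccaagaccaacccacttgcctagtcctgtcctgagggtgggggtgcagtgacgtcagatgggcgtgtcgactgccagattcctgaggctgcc
Col1a2: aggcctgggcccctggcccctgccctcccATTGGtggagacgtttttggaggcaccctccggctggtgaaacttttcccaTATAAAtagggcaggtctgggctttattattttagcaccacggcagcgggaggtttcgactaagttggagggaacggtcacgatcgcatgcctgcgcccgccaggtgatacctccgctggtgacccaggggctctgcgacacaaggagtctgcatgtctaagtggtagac

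Both strands were searched for AP-1 (TGANTCA), an AP-1 variant (TGAGTAA), the CCAAT box (CCAAT), the GC box (GGGCGG) and the TATA box (TATAAA), and no match shown overlaps another. Timp1 holds the AP-1 variant, starting 108 bases before the start, and a GC box on the opposite strand. Of all 33469 promoters in the table, 2.38% hold that AP-1 variant and 30.5% a GC box in the same window. Lamb3 holds a CCAAT box, which 34% of all promoters hold. Col1a2 holds a CCAAT box on the opposite strand and a TATA box, which starts 170 bases before the annotated start. A TATA box is held by 12.9% of all promoters. Each match is a description of letters in the window and says nothing on whether a factor binds there. TGANTCA was found in none of these 3 windows and in 6.34% of all promoters.

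Levels are log2 of the processed spot intensity with the 75th percentile of the array set to 0, and they are compared only within a probe. Between 69.8% and 88.4% of spots per array were well above background. Markers of thymocytes were high on every array, and their summed linear level (8 of 10 listed genes measured) was 95.5 to 130 in saline and 91.2 to 120 at 10 ml/kg corn oil. The arrays lay on 5 slides, each holding samples of exactly 2 groups, so slide was used as a block beside the plain fit. Saline and 5 ml/kg shared no slide, nor did 2 and 10 ml/kg, and their blocked differences come only through the other groups. Saline replicate 2 stood apart from the other saline arrays on the high side, and each member called against saline is given with and without it. Saline replicate 4, on slide 1, had the most members at their lowest level, as given below. The arrays of slide 1 also differed in background. Their net negative control signal was 19.8 to 27.9, against at most 14.4 on the other slides. Their share of spots well above background was 69.8% to 79.0%, against 78.9% to 88.4%.

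The 3 arrays of 10 ml/kg corn oil on slide 3 (replicates 1 to 3) stood apart too. They had 446 to 594 spots flagged as nonuniform, against 173 on the saline array of that slide and 7 to 63 on the other 15. Over all genes tested, their median deviation from the gene's mean was -0.21 to -0.16, against 0 and 0.02 on the 2 corn oil arrays of slide 5 (replicates 4 and 5). Each member called at 10 ml/kg in the plain fit is therefore also given without these 3 arrays. This alternative was chosen after seeing the data and leaves 2 arrays of 10 ml/kg, both on slide 5. No member had a missing value on the arrays of slide 3.

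On saline replicate 2, 21 of the 66 members were at their highest level of all 19 arrays. The median member lay 0.48 (log2) above its mean over all arrays there, against -0.27 to -0.09 on the other saline arrays. For the group of Fn1, Sparc, Eln, Fbn1, Dcn, Lum, Bgn and Postn, this median was 0.87 on replicate 2 and -0.64 to -0.15 on the other saline arrays. Over all genes tested it was 0.03 on replicate 2. Saline replicate 4 lay at the other end, with 16 of the 66 members at their lowest level of all 19 arrays. Its median over members was -0.27, close to -0.24 on replicate 3 and -0.25 on replicate 5. For fibrillar collagens the median was -0.97 on replicate 4, -0.52 to -0.31 on replicates 1, 3 and 5 and 0.45 on replicate 2. Cell type markers moved on saline replicate 2. The summed linear level of adipocyte markers (10 of 12 listed genes measured, each above background on some arrays) was 32.1 there and 5.32 to 8.98 on the other saline arrays. It was 8.45 to 18.5 at 2 ml/kg corn oil, 14.5 to 18.1 at 5 ml/kg and 5.53 to 17.2 at 10 ml/kg. Brown adipocyte markers (5 of 5 measured) summed to 32.7 on replicate 2 and 0.248 to 1.15 on the other saline arrays. Their sums were 0.252 to 12.3 at 2 ml/kg, 1.83 to 14.2 at 5 ml/kg and 0.19 to 0.493 at 10 ml/kg. B cell markers (3 of 5 measured) summed to 4.76 on replicate 2, 0.498 to 0.618 on the other saline arrays and 0.874 to 1.7 at 10 ml/kg. The part of these cells in the matrix values was not tested.

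**Figure D1:**
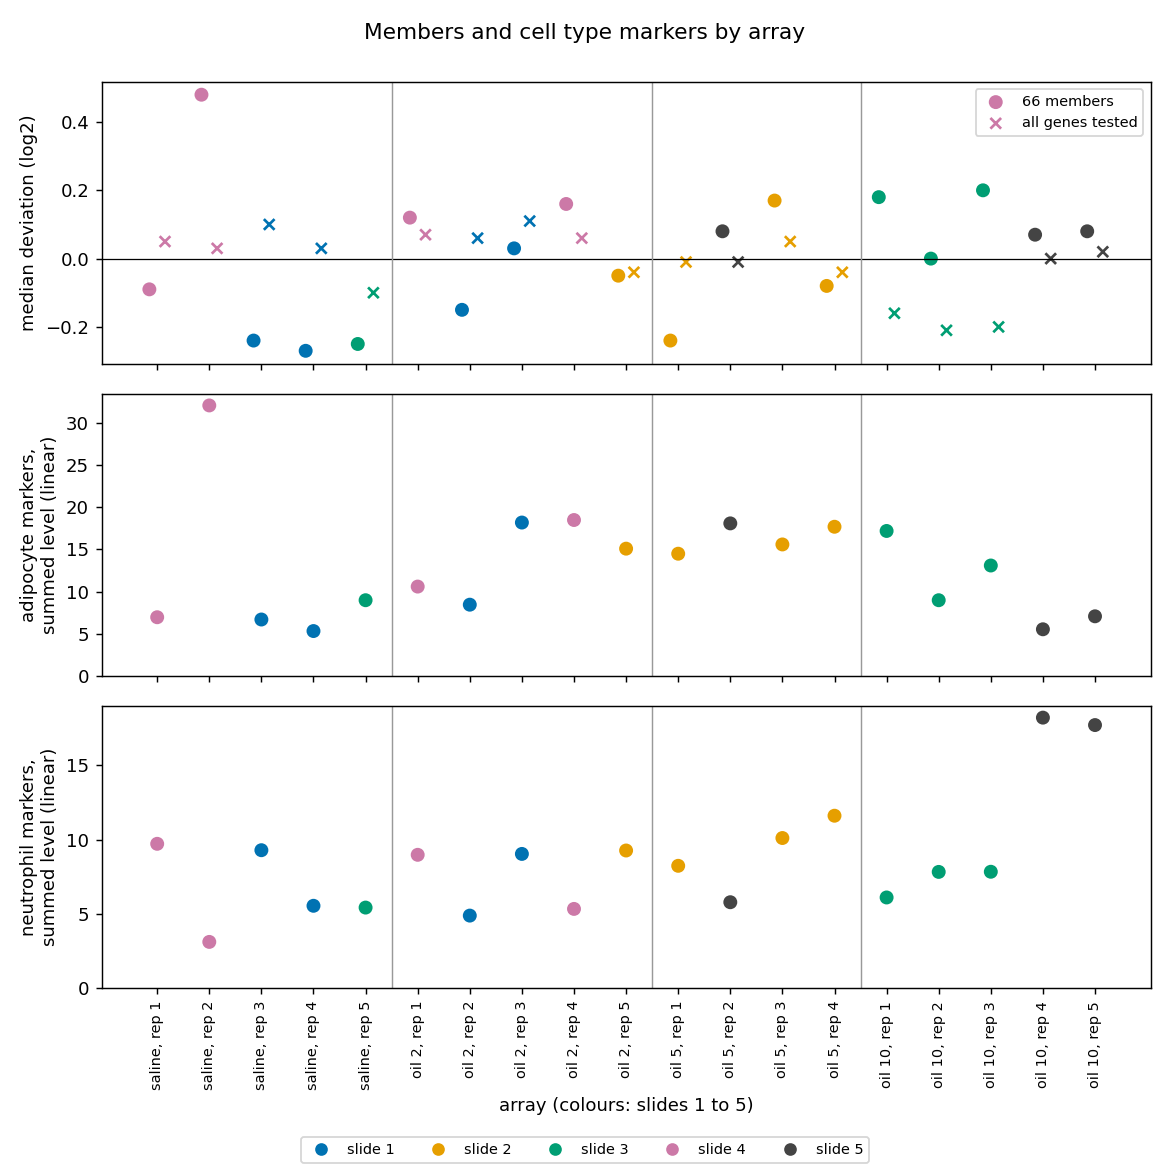
Upper panel: median over members of the log2 level minus the member's mean over 19 arrays (dots), with the same over all genes tested (crosses), for each array. Lower panels: summed linear level of adipocyte and of neutrophil markers, with colours for slides. Saline replicate 2 is highest in the upper panel, at 0.48, and in adipocyte markers, at 32.1, while 10 ml/kg replicates 4 and 5 are highest in neutrophil markers.

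The comparison at one volume, 10 ml/kg corn oil against 10 ml/kg saline, sets the oil against saline with the volume held equal. In the plain fit 6 of 66 members passed an adjusted p of 0.05. Timp1, Lamb3, Col1a1, Col3a1 and Mmp8 rose with corn oil, and Mmp16 fell. That is 9.09% of members against 6.34% of all 22667 genes tested. Higher calls were 7.58% of members against 2.8% of all genes, and lower calls 1.52% against 3.54%. The median difference of the members was 0.23, with 45 positive and 21 negative, and that of all genes was -0.13. With slide as a block 1 member was called, Mmp16, against 2% of all genes, and the members' median was 0.28. Without the 10 ml/kg arrays of slide 3, 3 members passed, Timp1 and Mmp9 higher and Mmp16 lower, against 3.15% of all genes, and the members' median was 0.13, with -0.04 for all genes.

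Timp1 encodes a secreted inhibitor of metalloproteinases. Its levels were -0.73, -0.62, -0.95, -0.79 and -0.75 in saline replicates 1 to 5 and -0.08, -0.26, -0.37, 0.06 and -0.33 in 10 ml/kg corn oil replicates 1 to 5. All 5 corn oil arrays lay above all 14 other arrays. This was so of 1.39% of all genes. Timp1 rose by 0.57 ± 0.10 (SE, n = 5 and 5, adjusted p = 0.00255), and the call held without any single array (largest adjusted p 0.00911). It rose by 0.61 ± 0.11 without saline replicate 2 (adjusted p = 0.00296) and by 0.63 ± 0.14 without the 10 ml/kg arrays of slide 3 (adjusted p = 0.0204). Blocking on slide gave 0.56 (adjusted p = 0.108). On slide 3, where 3 corn oil arrays and 1 saline array lay side by side, it was 0.52. The other inhibitors did not pass: Timp2 differed by 0.08 ± 0.12, Timp3 by 0.15 ± 0.22 and Timp4 by -0.79 ± 0.39. The sign of Timp2 turned with slide or scan day as a block, and that of Timp3 with array weights.

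Lamb3 encodes the β3 chain of laminin-332, an epithelial basement membrane laminin. Its levels were -0.83, -1.28, -1.15, -0.92 and -1.0 in saline and -0.18, -0.29, -0.06, -0.83 and -0.69 at 10 ml/kg corn oil. The groups did not overlap, but the lowest corn oil array and the highest saline array are the same at 2 decimals. Groups did not overlap for 3 members, Lamb3, Timp1 and Mmp16, and for 5.42% of all genes. Lamb3 rose by 0.62 ± 0.15 (adjusted p = 0.0185), with 0.62 and adjusted p = 0.104 under the slide block and 0.82 within slide 3. Without saline replicate 2 it rose by 0.56 ± 0.16 (adjusted p = 0.0431). The 3 corn oil arrays of slide 3 were the highest, and the 2 of slide 5 were at -0.83 and -0.69. Without the slide 3 arrays the difference was 0.28 ± 0.16 and the call was lost (adjusted p = 0.523). The call was lost without saline replicate 3, 10 ml/kg replicate 1 or 10 ml/kg replicate 3 (largest adjusted p 0.0559). Lama3, which encodes the α3 chain of laminin-332, did not pass and differed by 0.02, or by 0.09 ± 0.14 without the slide 3 arrays.

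Markers of thymic epithelium, 7 of 8 listed genes measured, summed highest on 2 of these 3 slide 3 arrays. Their summed level was 15.6, 9.13 and 11.8 on the corn oil arrays of slide 3 and 9.72 and 8.08 on those of slide 5. It was 7.09 to 8.68 in saline, 6.56 to 9.32 at 2 ml/kg and 7.3 to 7.78 at 5 ml/kg. The median deviation of the 7 from their means over all arrays did not follow the sum. That median was 0.05, -0.12 and -0.11 on slide 3 and 0.13 and 0.07 on slide 5. In saline it was -0.11 to 0.14, at 2 ml/kg -0.39 to 0.24 and at 5 ml/kg -0.25 to -0.1. None of the 7 passed against saline, and 3 had an unadjusted p under 0.05, as did 26.5% of all genes. Those were the basal keratins Krt5 (0.45 ± 0.14) and Krt14 (0.58 ± 0.22) and the epithelial transcription factor Foxn1, which was lower (-0.78 ± 0.26). Krt5 was called against 2 ml/kg (0.47 ± 0.14, adjusted p = 0.0433) and against 5 ml/kg (0.63 ± 0.15, adjusted p = 0.0178). The part of epithelial cells in the Lamb3 values was not tested.

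Among fibrillar collagens 2 of 7 tested members rose and none fell. Col1a1 encodes the α1 chain of type I collagen. Its levels were -1.06, 0.13, -1.40, -1.81 and -1.0 in saline and 0.54, 0.23, 0.50, 0.10 and 0.11 at 10 ml/kg corn oil. Only saline replicate 2 reached the corn oil range. Col1a1 rose by 1.32 ± 0.30 (adjusted p = 0.0141), and by 1.61 ± 0.25 without saline replicate 2 (adjusted p = 0.00106). Under the slide block the difference was 1.33 with adjusted p = 0.139, and within slide 3 it was 1.42. Without the 10 ml/kg arrays of slide 3 it was 1.13 ± 0.43, with no call (adjusted p = 0.233). The second, dimmer probe of Col1a1 differed by 0.55.

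Col3a1 encodes type III collagen. Its levels were 1.82, 2.65, 1.40, 1.07 and 1.86 in saline and 3.13, 2.88, 3.02, 2.57 and 2.39 at 10 ml/kg corn oil. Here too saline replicate 2 alone overlapped the corn oil arrays. Col3a1 rose by 1.04 ± 0.29 (adjusted p = 0.0410), by 1.26 ± 0.27 without saline replicate 2 (adjusted p = 0.0101) and by 0.96 under the slide block (adjusted p = 0.225). Without the 10 ml/kg arrays of slide 3 it differed by 0.72 ± 0.40 (adjusted p = 0.504). The call was lost in 8 of the 19 fits that leave out 1 array, those without saline replicate 1, 3 or 4, 2 ml/kg replicate 1, 5 ml/kg replicate 4 or 10 ml/kg replicate 1, 2 or 3 (largest adjusted p 0.110). The other fibrillar collagens did not pass. Col1a2 differed by 0.60 ± 0.24, Col5a1 by 0.57 ± 0.30, Col2a1 by 0.26 ± 0.12, Col5a3 by 0.15 ± 0.17 and Col11a2 by -0.22 ± 0.12.

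**Figure D2:**
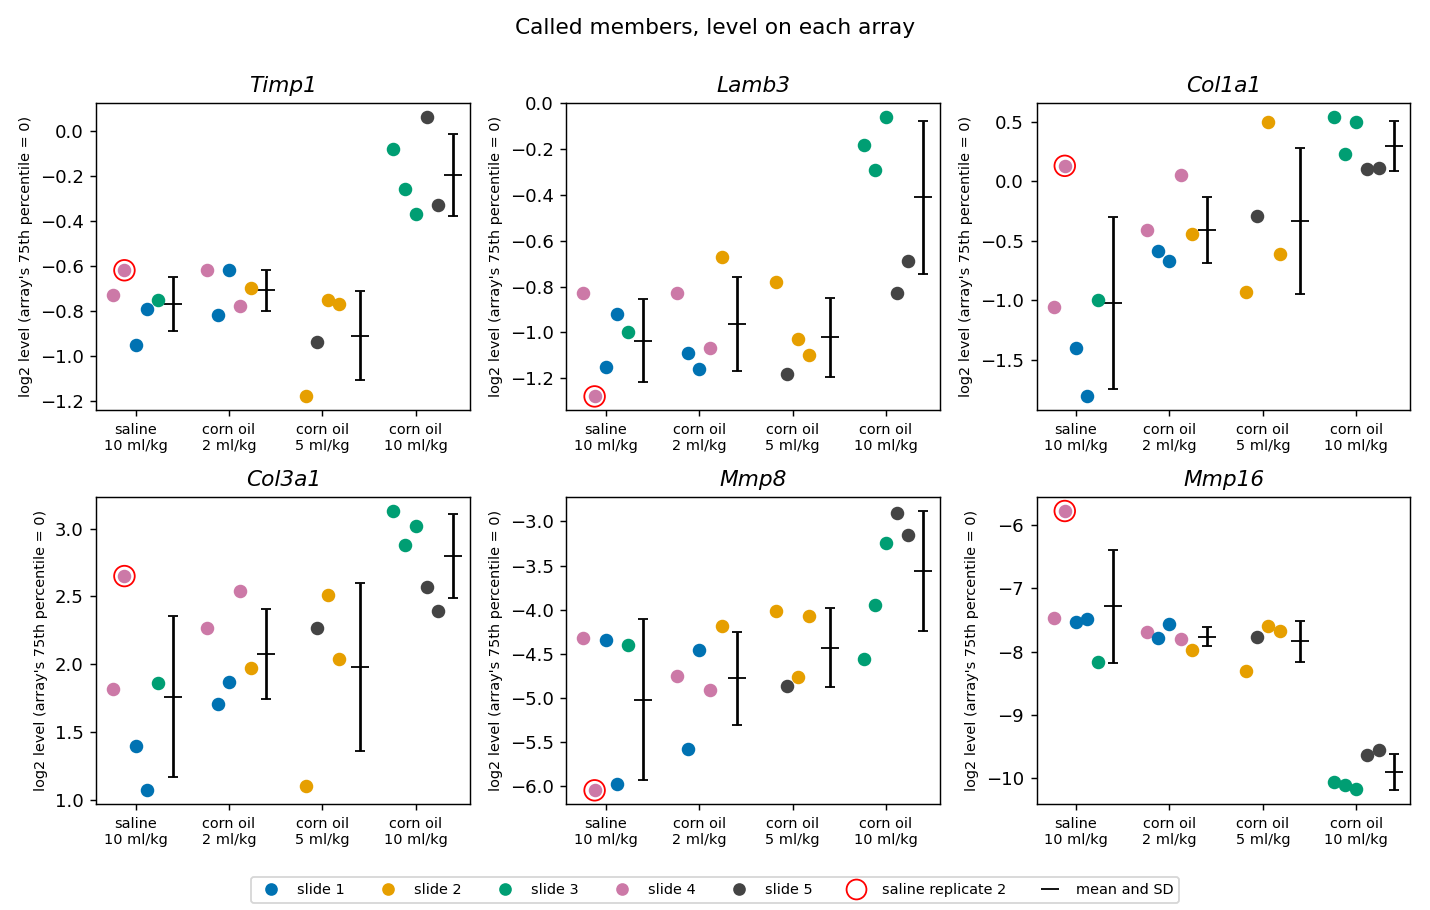
Log2 level (the array's 75th percentile at 0) of the 6 called members on each array by group, with dots coloured by slide, a red ring on saline replicate 2, and the mean and SD of each group. Timp1 and Mmp16 at 10 ml/kg are apart from all 14 other arrays, while the ringed array overlaps the corn oil range for Col1a1 and Col3a1.

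Of the 16 metalloproteinases tested, 1 rose and 1 fell. Mmp8, the neutrophil collagenase, was at -4.32, -6.05, -4.35, -5.98 and -4.40 in saline and at -4.56, -3.95, -3.25, -2.90 and -3.15 at 10 ml/kg corn oil. The lowest corn oil array lay below 3 saline arrays. Mmp8 rose by 1.46 ± 0.41 (adjusted p = 0.0431), by 1.20 ± 0.40 without saline replicate 2 (adjusted p = 0.0889) and by 0.91 under the slide block (adjusted p = 0.576). Without the 10 ml/kg arrays of slide 3 it differed by 2.00 ± 0.51 (adjusted p = 0.0536). The call was lost in 12 of the 19 fits that leave out 1 array, those without saline replicate 2 or 4, 2 ml/kg replicate 1 or 4, any 5 ml/kg replicate or 10 ml/kg replicate 2, 3, 4 or 5 (largest adjusted p 0.115). Within slide 3 the difference was 0.48.

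Neutrophil markers moved with Mmp8. Of 5 listed genes 4 were measured, and Lcn2 and S100a9 rose at 10 ml/kg corn oil (S100a9 by 1.12 ± 0.31, adjusted p = 0.0420). Of all genes 6.34% were called. All 4 had an unadjusted p under 0.05 in limma, beside 26.5% of all genes. Their summed level was 3.11 to 9.71 in saline, 4.88 to 9.26 at 2 ml/kg and 5.78 to 11.6 at 5 ml/kg. At 10 ml/kg it was 6.1 to 7.83 on slide 3 and 17.7 and 18.2 on slide 5. The median deviation of the 4 from their means over all arrays was 0.55, 0.99 and 1.56 on slide 3 and 1.29 and 0.98 on slide 5. It was -1.47 to 0.27 in saline, -0.97 to 0.07 at 2 ml/kg and -0.76 to 0.09 at 5 ml/kg. Mmp9, gelatinase B, which neutrophils also store, was at -2.66, -3.20, -2.88, -2.89 and -2.69 in saline and at -3.00, -2.14, -2.73, -2.08 and -2.04 at 10 ml/kg. It differed by 0.46 ± 0.18 (adjusted p = 0.122), and without the 10 ml/kg arrays of slide 3 it rose by 0.80 ± 0.17 (adjusted p = 0.0162). The part of neutrophils in these values was not tested.

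Mmp16, a membrane-type metalloproteinase, was dim. It was well above background on 3 of 5 saline arrays, 2 of 5 at 2 ml/kg, 2 of 4 at 5 ml/kg and none of 5 at 10 ml/kg. It thus entered the test through the groups where it was higher. Its levels were -7.47, -5.78, -7.53, -7.48 and -8.17 in saline and -10.06, -10.10, -10.17, -9.64 and -9.55 at 10 ml/kg corn oil, below all 14 other arrays. The group means were -7.29 and -9.90, a difference of -2.62 ± 0.31 (adjusted p = 6.23e-05). Since the signal at 10 ml/kg was not above background, only a bound on the size is given: at least 1.66-fold lower with all 5 saline arrays. That bound sets the saline mean against a floor for each corn oil array, namely the dimmest signal still well above background there, or the probe's own signal where that was brighter. The saline mean includes replicate 2 (-5.78) and arrays not well above background, all at their own values. No bound is given without replicate 2. The difference was -2.06 with slide as a block (adjusted p = 0.0231), -2.24 ± 0.18 without saline replicate 2 (adjusted p = 1.59e-06) and -2.31 ± 0.44 without the 10 ml/kg arrays of slide 3 (adjusted p = 0.0096). With the normexp background correction in place of the scanner's own, it was 0.15, so the direction of this dim gene turned with the background correction.

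The remaining metalloproteinases did not pass. Mmp23 differed by 1.11 ± 0.32 (adjusted p = 0.0522), Mmp24 by 0.62 ± 0.18 (adjusted p = 0.0514) and Mmp17 by 0.46 ± 0.15 (adjusted p = 0.0747). Mmp14, the membrane-type metalloproteinase that activates pro-Mmp2, differed by 0.31 ± 0.18. Mmp2, gelatinase A, differed by 0.24 ± 0.28. The second probe of Mmp2 went the other way (-0.26), as did that of Mmp17 (-0.48).

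Among 4 basement membrane and network collagens and 7 laminins tested, Lamb3 was the only call. Col4a1, the α1 chain of type IV collagen, was at -0.13, 0.88, -0.54, -0.46 and 0.12 in saline. At 10 ml/kg it was at 0.76, 0.74 and 1.07 on slide 3 and at 0.08 and 0.15 on slide 5. The corn oil arrays thus lay apart by slide, with those of slide 5 lower. Both slide 5 arrays, and the slide 3 arrays at 0.76 and 0.74, were inside the saline range, whose top was replicate 2. The difference was 0.59 ± 0.24 (adjusted p = 0.140), and a dimmer probe gave -0.41. Col18a1, the source of endostatin, differed by 0.32 ± 0.22, and by 0.54 ± 0.17 without saline replicate 2 (adjusted p = 0.076). The γ1 laminin chain Lamc1 showed the same split, with -0.18, -0.80 and -0.28 on slide 3, -1.04 and -1.21 on slide 5 and -1.53 to -0.21 in saline (difference 0.47 ± 0.23). Lamb1 differed by 0.29 ± 0.14 and Lamb2 by -0.21 ± 0.21.

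None of the 6 other collagens, 8 glycoproteins and proteoglycans, 5 Lox-named genes and 9 ADAMTS proteases tested passed in limma. An unadjusted p under 0.05 was found for 2, 2, 1 and 2 of them, the 1 being Loxhd1, and for 26.5% of all genes. Col6a2, of the beaded filament collagen VI, differed by 0.68 ± 0.20 (adjusted p = 0.0549). Sparc, a collagen-binding matricellular protein, differed by 0.64 ± 0.22 and the small proteoglycan Bgn by 0.58 ± 0.23, with -0.40 on a dimmer probe of Bgn. Postn differed by 0.49 ± 0.31, Lum by 0.29 ± 0.36, fibronectin (Fn1) by 0.16 ± 0.15, fibrillin 1 (Fbn1) by 0.14 ± 0.33 and Dcn by -0.10 ± 0.27. A second probe of Fn1 gave -0.31. Elastin (Eln) differed by -0.92 ± 0.48, and by 0.20 with normexp. Loxl1 differed by 0.27 ± 0.29, Adamts1 by -0.32 ± 0.19 and Adamts5 by 0.39 ± 0.46. The sign of Dcn turned under the slide block, and also without saline replicate 2, and that of Fbn1 without saline replicate 4.

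Leaving out saline replicate 2 changed the count more than any other single array. Then 18 of 66 members passed at 10 ml/kg, 17 of them higher, against 6.3% of all genes in either direction, 3.28% higher and 3.02% lower. This was 27.3% of members. The 17 were Col1a1, Col1a2, Col3a1, Col5a1, Col4a1, Col6a2, Lamb1, Lamb3, Lamc1, Sparc, Bgn, Postn, Loxl2, Mmp19, Mmp23, Adamts12 and Timp1, and Mmp16 stayed lower. Mmp8 lost its call. Of the 7 fibrillar collagens 4 rose, Col1a1, Col1a2, Col3a1 and Col5a1, by 1.61 ± 0.25, 0.80 ± 0.22, 1.26 ± 0.27 and 0.89 ± 0.23. Sparc rose by 0.82 ± 0.20, Postn by 0.85 ± 0.21, Loxl2, a collagen cross-linker, by 0.82 ± 0.18 and Adamts12 by 1.04 ± 0.19. Adamts12 and Mmp19 were dim, each well above background on 3 of 5 saline arrays and on 5 of 5 at 10 ml/kg. The members' median was then 0.32, with 46 positive. In the fit without the 10 ml/kg arrays of slide 3, which kept saline replicate 2, only Timp1 and Mmp16 of these 18 passed. There Col1a2 differed by 0.39, Col5a1 by 0.31, Col4a1 by 0.14, Col6a2 by 0.42, Lamb1 by 0.26 and Lamc1 by 0.05. Sparc differed by 0.3, Bgn by 0.51, Postn by 0.82, Loxl2 by 0.38, Mmp19 by 0.47, Mmp23 by 0.92 and Adamts12 by 0.59.

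Slide and replicate 2 together gave another count. Blocking on slide and dropping saline replicate 2 left 3 members that passed, Adamts12 and Mmp19 higher and Mmp16 lower, against 2.07% of all genes, and the median was again 0.32. All 3 were dim, with a signal not well above background on some saline arrays. Within slide 3 alone, 54 of 66 members were higher in the 3 corn oil arrays than in saline replicate 5, with a median of 0.41 against -0.06 over all genes. That comparison holds 1 saline array and has no test. Leaving out saline replicate 5 gave 15 calls, 10 of them higher. Leaving out saline replicate 4 gave 4, and leaving out 10 ml/kg replicate 3 gave 3. The share of all genes called in those fits is not given, so these counts are not read as a result about the members.

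**Figure D3:**
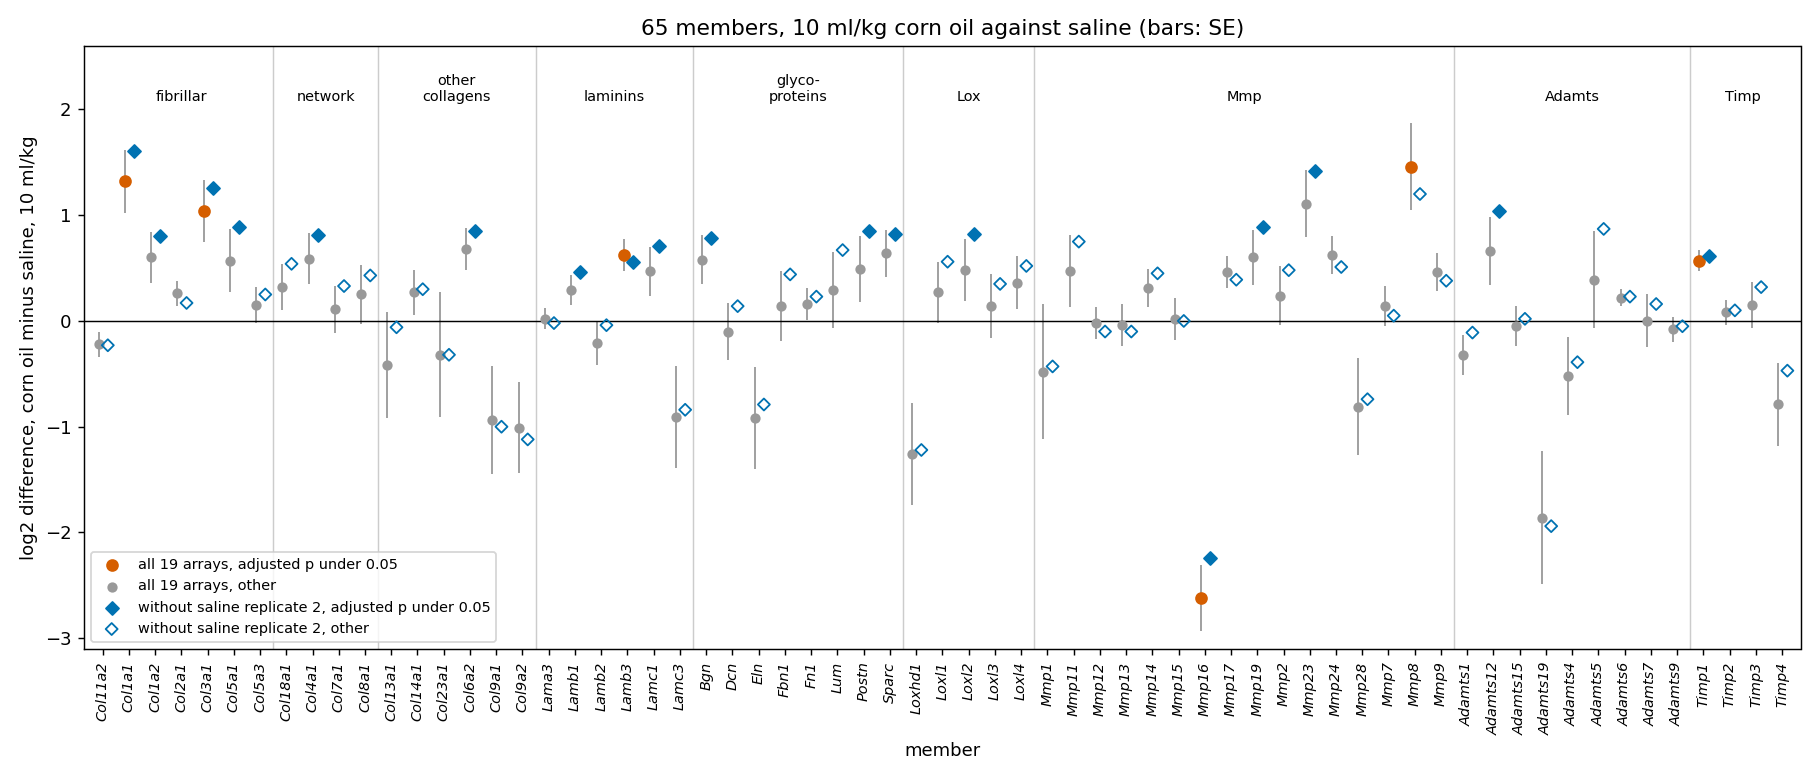
Log2 difference of 10 ml/kg corn oil minus saline for 65 of the 66 tested members, grouped by role: dots with SE bars for all 19 arrays, diamonds without saline replicate 2, filled where the adjusted p is under 0.05. With all arrays 6 members are filled, and without replicate 2 it is 18, and 17 of those 18 are above 0.

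Genes that act on the same matrix were read from lists beside the members. Of 17 genes of collagen making tested, 2 rose at 10 ml/kg: Serpinh1, the collagen chaperone HSP47, by 0.63 ± 0.18 (adjusted p = 0.0496) and the prolyl hydroxylase family gene P3h3 by 0.43 ± 0.11 (adjusted p = 0.0314). Of all genes 6.34% were called, 2.8% higher. An unadjusted p under 0.05 in limma was found for 7 of the 17, beside 26.5% of all genes. Without saline replicate 2, Serpinh1, P3h3, Pcolce and Plod1 rose, beside 6.3% of all genes called, and with slide as a block none passed, beside 2%. None of 15 integrins and other matrix receptors, 15 genes of the TGF-beta axis, 6 of the plasminogen system or 2 basement membrane linkers passed, and 3, 4, 0 and 0 of them had an unadjusted p under 0.05 in limma, beside 26.5% of all genes. The medians of these lists were 0.10, -0.12, -0.07 and 0.20, beside -0.13 for all genes. Without saline replicate 2, Itga1, Ltbp4 and Thbs2 passed, all higher, beside 6.3% of all genes called in that fit.

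Markers of the cells that make matrix were examined too. Of 6 fibroblast markers tested none passed in limma, and 0 had an unadjusted p under 0.05, beside 26.5% of all genes (Pdgfra rose without saline replicate 2). Their summed level was 2.37 to 3.64 in saline and 2.53 to 3.28 at 10 ml/kg, 2.85 to 3.1 at 2 ml/kg and 2.43 to 3.88 at 5 ml/kg. Tcf21 was above background on no array. Of 9 mural cell markers 2 rose at 10 ml/kg, Pdgfrb by 0.72 ± 0.18 (adjusted p = 0.0238) and Tagln by 0.90 ± 0.20 (adjusted p = 0.0117, or 0.0197 when slide was blocked). Of all genes 6.34% were called, 2.8% higher. An unadjusted p under 0.05 in limma was found for 3 of the 9 mural markers, beside 26.5% of all genes. Mural marker sums were 1.63 to 2.92 in saline (highest on replicate 2), 2.02 to 2.27 at 2 ml/kg and 1.75 to 2.21 at 5 ml/kg. At 10 ml/kg they were 3.47, 3.18 and 3.82 on slide 3 and 2.31 and 2.7 on slide 5, the latter inside the saline range. Calls of genes outside the members are not given without the 10 ml/kg arrays of slide 3. Of 8 endothelial markers measured (10 listed), Pecam1 rose by 0.53 ± 0.14 (adjusted p = 0.0269), and 6 of the 8 had negative differences. In limma 2 of the 8 had an unadjusted p under 0.05, beside 26.5% of all genes. Endothelial sums were 5.25 on saline replicate 2, 2.1 to 2.79 on the other saline arrays, 2.28 to 2.79 at 2 ml/kg, 2.41 to 2.7 at 5 ml/kg and 2.6 to 3.31 at 10 ml/kg. The part of these cells in the collagen and laminin values was not tested.

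At the lower volumes no member passed. For 5 ml/kg corn oil against saline, 0 of 66 members and 0% of all genes were called by limma, with or without the slide block. At an unadjusted p under 0.05 there were 2 members, Col1a1 and Col7a1 (3.03%), against 8.29% of all genes, and 4 members (6.06%) with slide as a block, against 5.46%. Col1a1 differed by 0.70 ± 0.32 and Col4a1 by 0.50 ± 0.26, and Timp1 by -0.14 ± 0.11. The dimmer probes of Col1a1 and Col4a1 went the other way (-0.21 and -0.57). The differences of all 66 lay between -1.32 and 0.70, with a median of 0.08 and 39 positive. Without saline replicate 2 the median was 0.15 with 46 positive, and Col1a1 differed by 0.98 ± 0.26 (adjusted p = 0.299).

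For 2 ml/kg corn oil against saline, again 0 of 66 members and 0% of all genes were called in both fits. No member had an unadjusted p under 0.05 in the plain fit, where 0.922% of all genes did, and with slide as a block 4 members did, Col1a1, Col1a2, Col14a1 and Adamts15 (6.06%, beside 2.54% of all genes). The differences lay between -0.48 and 0.62, with Col1a1 the largest (0.62 ± 0.30) and Col1a2 next among the core genes (0.47 ± 0.24). The median was 0.13 with all arrays and 0.23 without saline replicate 2. Both comparisons use the saline arrays that the 10 ml/kg comparison uses, so their differences are not independent. Col1a1 at each volume against saline was 0.62 (2 ml/kg), 0.70 (5 ml/kg) and 1.32 (10 ml/kg) on the brighter probe. Its second probe, also above background on all 19 arrays, gave 0.05, -0.21 and 0.55, so the signs disagreed at 5 ml/kg.

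The comparison of 5 with 2 ml/kg also gave 0 of 66 members and 0% of all genes. With slide as a block it was 0 of 66 and 0.00441%. At an unadjusted p under 0.05 there were 2 members, Adamts19 and Adamts7, in the plain fit (3.03%, beside 8.5% of all genes), and 3 with the block (4.55%, beside 6.07%). Core differences ran from -0.82 ± 0.51 (Eln) to 0.23 ± 0.26 (Col4a1).

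**Figure D4:**
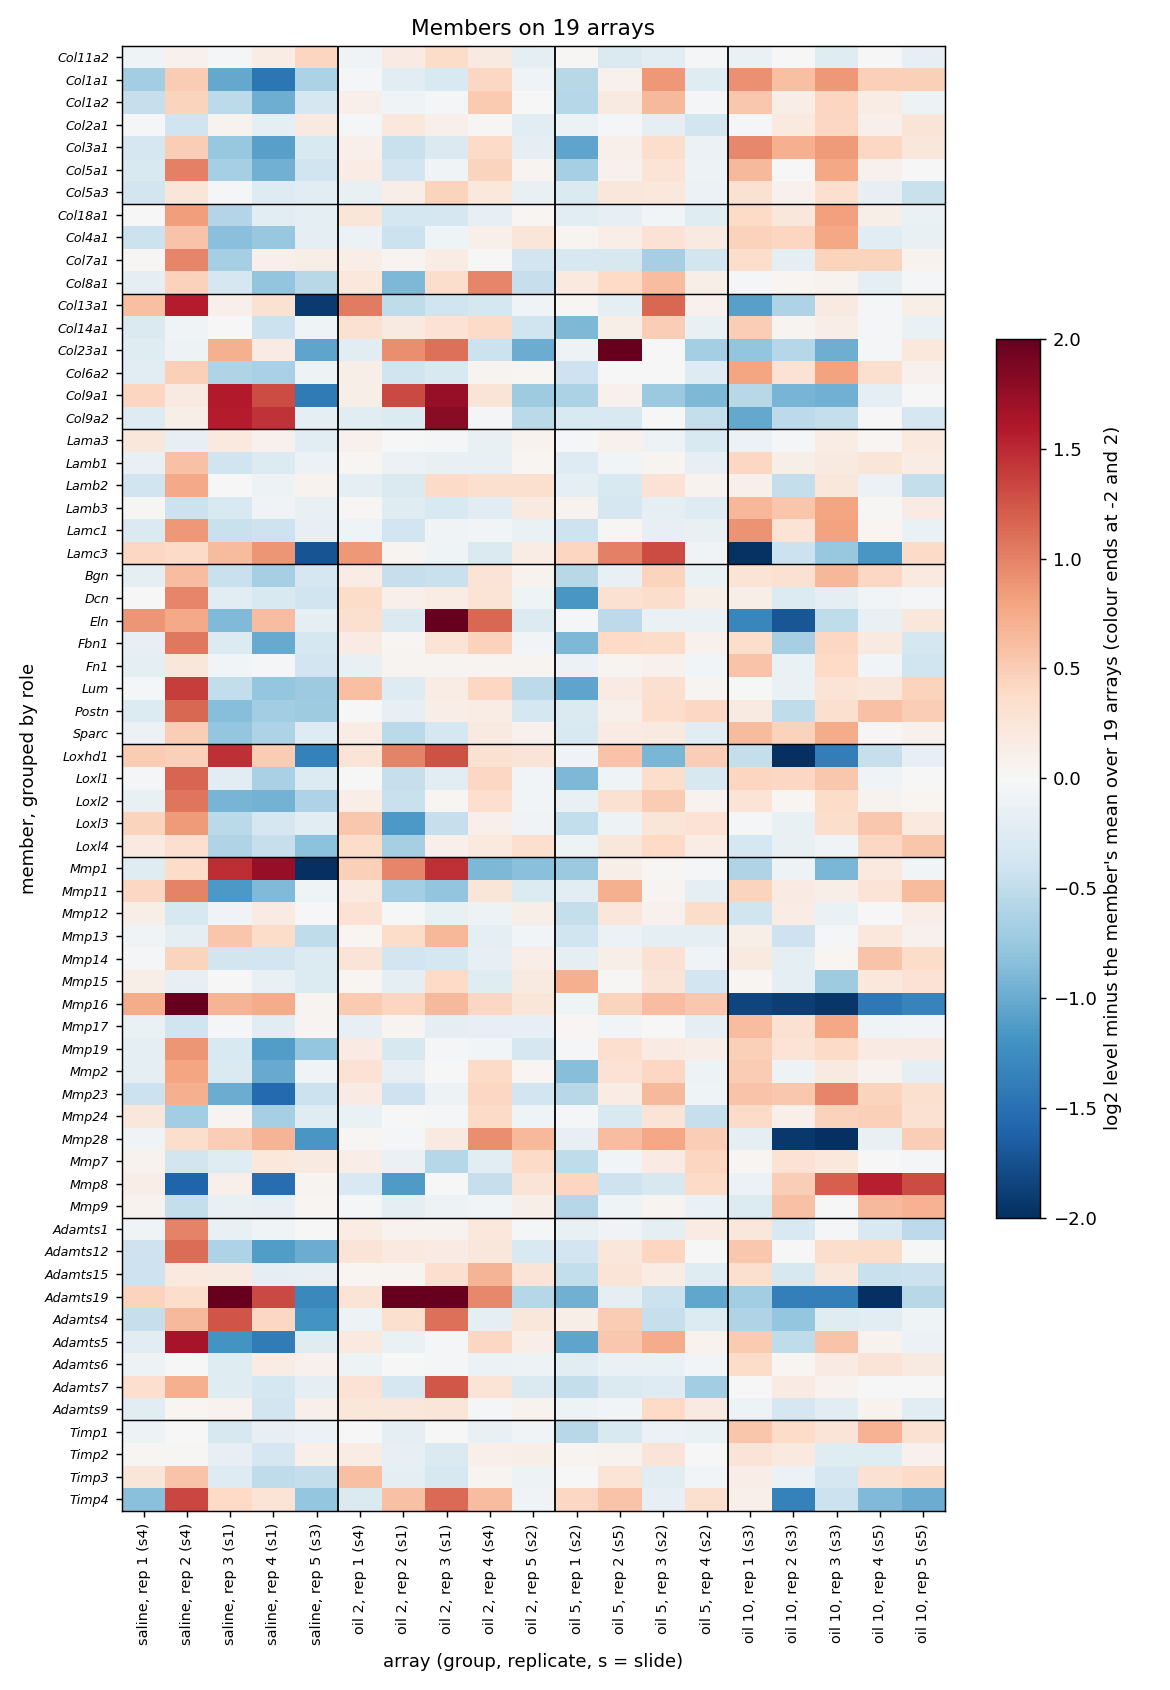
Log2 level minus the member's mean over 19 arrays (colour, ending at -2 and 2) for 65 of the 66 tested members in rows by role and 19 arrays in columns by group, with the slide in brackets. Saline replicate 2 is red across most matrix proteins, and Col9a1, Col9a2, Mmp1 and Adamts19 are red on the slide 1 arrays of saline.

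Corn oil at 10 ml/kg differed from both lower volumes in a few members. Against 2 ml/kg, 6 of 66 passed, 3 higher (4.55%) and 3 lower (4.55%), beside 12.5% of all genes, 3.69% higher and 8.77% lower. Against 5 ml/kg, 4 of 66 passed, 3 higher and 1 lower (1.52%), beside 7.94% of all genes, 3.53% higher and 4.4% lower. Timp1, Lamb3 and Adamts6 were higher at 10 ml/kg and Mmp16 was lower in both. The 2 comparisons share the 10 ml/kg arrays. Without the slide 3 arrays of 10 ml/kg, 3 members passed against 2 ml/kg (Timp1 and Mmp9 higher, Mmp16 lower), beside 2.67% of all genes, and 2 against 5 ml/kg (Timp1 and Mmp9 higher), beside 2.35%.

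Timp1 was at -0.62, -0.82, -0.62, -0.78 and -0.70 at 2 ml/kg and at -1.18, -0.94, -0.75 and -0.77 at 5 ml/kg. It was higher at 10 ml/kg by 0.51 ± 0.10 against 2 ml/kg (adjusted p = 0.00522) and by 0.72 ± 0.11 against 5 ml/kg (adjusted p = 0.000706), and by 0.81 within slide 5. Without the slide 3 arrays these Timp1 differences were 0.57 ± 0.14 (adjusted p = 0.0403) and 0.78 ± 0.14 (adjusted p = 0.00839). In order of level the groups were 5 ml/kg (mean -0.91), saline (-0.77), 2 ml/kg (-0.71) and 10 ml/kg (-0.20), and the ranges of neighbours among the first 3 overlapped. Lamb3 was at -0.83, -1.09, -1.16, -1.07 and -0.67 at 2 ml/kg and at -0.78, -1.18, -1.03 and -1.10 at 5 ml/kg. Its differences were 0.55 ± 0.15 (adjusted p = 0.0273) and 0.61 ± 0.16 (adjusted p = 0.0269), and the groups overlapped in both. Without the slide 3 arrays they were 0.21 ± 0.16 and 0.26 ± 0.16, with no call (adjusted p = 0.702 and 0.569). These calls were lost without 2 ml/kg replicate 2, 3 or 4 (against 2 ml/kg), 5 ml/kg replicate 2, 3 or 4 (against 5 ml/kg), or 10 ml/kg replicate 1, 2 or 3 (both).

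Mmp16 at 10 ml/kg was -2.14 ± 0.31 against 2 ml/kg (adjusted p = 0.000420) and -2.06 ± 0.33 against 5 ml/kg (adjusted p = 0.00119), at least 1.19-fold and 1.13-fold lower by the bound. With normexp these differences were -0.46 and -0.23, with no call. Without the slide 3 arrays Mmp16 was -1.83 ± 0.44 against 2 ml/kg (adjusted p = 0.0406). Against 5 ml/kg it was then -1.75 ± 0.45, and that call was lost (adjusted p = 0.0647). Adamts6 rose by 0.27 ± 0.08 and 0.33 ± 0.09 (adjusted p = 0.0396 and 0.0256), and the median of its 2 probes turned the sign. Without the slide 3 arrays neither Adamts6 call was kept (adjusted p = 0.202 and 0.122). Adamts19 was well above background on 3 saline and 4 of the 2 ml/kg arrays and on none at 5 or 10 ml/kg, and Loxhd1 on 2 saline, 3 of the 2 ml/kg, 2 of the 5 ml/kg and no 10 ml/kg arrays. Like Mmp16, both entered the test through the groups where they were higher, so the 3 lower calls against 2 ml/kg are no independent support. Only bounds can be given for their size, with every array of the brighter group at its own value, well above background or not. Adamts19 was at least 3.06-fold lower at 10 than at 2 ml/kg (adjusted p = 0.0298, or 0.256 without the slide 3 arrays), and Loxhd1 at least 1.56-fold lower (adjusted p = 0.0446, or 0.61). Among fits without 1 array, the Adamts19 call was lost in 5 (2 ml/kg replicate 2, 3 or 4, 10 ml/kg replicate 2 or 3) and the Loxhd1 call in 12 (saline replicate 1 or 4, 2 ml/kg replicates 1 to 4, 5 ml/kg replicate 1, 2 or 4, 10 ml/kg replicate 1, 2 or 3). The Adamts6 call against 2 ml/kg was lost in 7 (2 ml/kg replicates 1 to 4, 5 ml/kg replicate 3, 10 ml/kg replicate 1 or 3), and that against 5 ml/kg in 3 (5 ml/kg replicate 1 or 3, 10 ml/kg replicate 1). With slide as a block no member was called for 10 against 2 ml/kg, where 1.23% of all genes were. An unadjusted p under 0.05 was then found for 5 members (7.58%) and for 13.4% of all genes. For 10 against 5 ml/kg 1 was called with the block, Col23a1, beside 1.2% of all genes.

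Col23a1, a transmembrane collagen, was called through 1 array. It was at -3.75 in 5 ml/kg replicate 2 and at -6.88, -6.77 and -7.47 in the other 5 ml/kg arrays. Within slide 5, where that array was the only one of its group, the difference was -2.95, and the plain difference was -1.0.

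A few members followed slide 1. Col9a1, a chain of cartilage collagen IX, was at -2.58 to -2.15 on the 4 arrays of slide 1, shared by saline and 2 ml/kg corn oil, and at -5.30 to -3.46 on the other 15 arrays. Col9a2 was at -3.86 and -3.98 in saline replicates 3 and 4 and -3.62 in 2 ml/kg replicate 3, but -5.70 in 2 ml/kg replicate 2. Adamts19 was at -5.03, -6.15, -5.04 and -5.20 on slide 1 and at or below -6.52 elsewhere. The collagen IX differences at 10 ml/kg against saline were -0.94 ± 0.51 for Col9a1 and -1.01 ± 0.43 for Col9a2, and with slide as a block 0.36 and -0.35. Slide 1 held no array of 10 ml/kg corn oil.

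The scaling of the arrays moved the balance of the members. For 10 ml/kg corn oil against saline the median of all genes was -0.13 with the 75th percentile, 0.09 with normexp and 0.06 with quantile normalization, and the members' median was 0.23, 0.35 and 0.45. Positive members numbered 45, 57 and 55 of 66. Calls numbered 6 (5 higher), 3 (3 higher) and 8 (8 higher). The share of all genes called is given only for the first of these. Relative to all genes the members' median was higher under each of these scalings. For 10 against 2 ml/kg the members' median was 0.06, -0.03 and 0.43, beside -0.19, -0.19 and 0.08 for all genes.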

How the data were processed

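Rat thymus RNA of 19 samples was measured on 1-colour Agilent arrays. The authors deposited spot intensities on a linear scale from Feature Extraction 10.7.3.1, background-subtracted per the file headers, for arrays designed on build rn4. The authors' series value table also holds intensities, and it served only as an alternative, since the sources used here do not give its scaling factor per array.

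Each array's processed intensity was divided by its own 75th percentile and taken to log2. Control spots were dropped, flagged spots were set missing, and spots of a probe were averaged. Accessions, without version, were matched to RefSeq symbols (GRCr8), which named 17328 of 30367 probes. A probe needed a signal well above background on 4 arrays or more and 2 values in every group, and the brightest probe stood for a gene. This left 22667 genes. No member had a missing value. Of the tested members, 1 is not reported here on its own, and it stays in the counts and medians.

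All 19 arrays were fitted in R 4.3.3 by limma 3.58.1 (two-sided moderated tests of lmFit and eBayes, 1 coefficient per group, 15 residual degrees of freedom), with Benjamini-Hochberg adjustment over all genes and a threshold of 0.05. The step was tested on simulated data. Members, lists and tests were chosen with earlier results of these data known. Genes named are the core list and, per comparison, up to 15 called members in each direction. Of 36 core genes 27 were tested, and 9 (Col5a2, Col4a2, Col6a1, Col6a3, Col15a1, Lama2, Lama4, Lama5 and Lox) were not analysed here. The members Col7a1, Col8a1, Col9a1, Col9a2, Col23a1, Mmp17, Mmp23 and Mmp24 and the others outside that rule were named after their values were seen. Alternatives were the background correction (normexp with offset 50 on the median signal, as the files hold no mean signal), quantile normalization, the authors' table, the filter, the probe rule, blocks for slide, scan day and replicate number, array weights, only the groups compared, each array left out and, chosen after seeing the data, the 10 ml/kg arrays of slide 3 left out. The number of arrays limits the precision.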

Additional observations from a re-analysis of the deposited data

Results flagged for a closer look

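In 260 sets of 4 or 5 arrays (65 of the 66 tested members in each group), 17 had 1 array far from the rest by Dixon's criterion, and chance flags about 1 in 20 such sets. In saline replicate 2 these were Adamts1 at -1.92, Dcn at 2.00 and Lamc1 at -0.21, all above the other saline arrays. In saline replicate 5, Lamc3 was at -9.71, where its probe was above background on 6 arrays in all. At 2 ml/kg, replicate 1 stood apart for Col13a1 (-6.77) and Fn1 (0.27), and replicate 2 for Lamc1 (-1.46), Loxl4 (-7.36) and Mmp17 (-2.53). Replicate 3 did so for Col9a2 (-3.62), replicate 4 for Col1a2 (1.59) and Mmp24 (-4.04), and replicate 5 for Adamts12 (-6.83) and Col14a1 (-1.33). At 5 ml/kg, replicate 1 stood apart for Dcn (-0.15) and Mmp1 (-8.47) and replicate 3 for Col7a1 (-4.51).

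The volumes of corn oil differed in 10 calls, each a limma test of the difference itself. Between 10 and 2 ml/kg these were Timp1 (0.51), Lamb3 (0.55), Adamts6 (0.27), Mmp16 (-2.14), Adamts19 (-2.28) and Loxhd1 (-1.55). Between 10 and 5 ml/kg they were Timp1 (0.72), Lamb3 (0.61), Adamts6 (0.33) and Mmp16 (-2.06). None of these 10 calls was kept with slide as a block, where the adjusted p-values ran from 0.0521 to 0.765. Mmp16, Adamts19 and Loxhd1 were well above background on no 10 ml/kg array.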

How the results depend on the processing

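The comparisons of 5 and 2 ml/kg with saline and of 5 with 2 ml/kg gave 0 called members in every alternative run. For 10 ml/kg against saline (6 members), the count was 3 with normexp, 1 with slide as a block, 2 with scan day as a block, 19 with array weights (12 higher), 2 with only the groups compared, and 3 with slide as a block and saline replicate 2 left out. Leaving out 1 array at a time gave 3 to 18. For 10 against 2 ml/kg (6 members), it was 1 with normexp, 3 with the stricter filter, 0 with slide as a block, 2 with slide as a random block, 2 with scan day, 15 with array weights, 3 with only the groups compared and 1 with the slide block without saline replicate 2. Leaving out 1 array gave 2 to 10, with 10 without saline replicate 2 or 10 ml/kg replicate 5. For 10 against 5 ml/kg (4 members), it was 1 with normexp, 2 with quantile normalization, 1 with slide, 1 with scan day, 15 with array weights, 2 with only the groups compared and 2 with the slide block without saline replicate 2. Leaving out 1 array gave 2 to 7. Without the 10 ml/kg arrays of slide 3 these counts were 3, 3 and 2. The cause was not tested. The other alternatives kept each count within 1.5 times. For the alternatives whose share of all genes called is not given above, array weights among them, these counts cannot be set against all genes. They are therefore not read as a result about the members.

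Signs turned for Mmp16 (0.15 with normexp) and Eln (0.20 with normexp), for Lamb2 (0.11 with quantile normalization, 0.01 with array weights) and for Timp3 (-0.11 with array weights). They turned for Fn1 (-0.08) and Mmp2 (-0.01) with the median of the probes, and for Adamts6 likewise (-0.21 against 2 ml/kg, -0.06 against 5 ml/kg). With scan day as a block Fbn1 was -0.02, Mmp2 -0.04, Timp2 -0.08 and Adamts5 -0.03. With slide as a block Dcn was 0.08 and Timp2 -0.05, with slide as a random block Dcn was 0, and with slide and without saline replicate 2 Dcn was 0.16 and Timp2 -0.05. Leaving out 1 array gave Dcn from -0.21 to 0.14 (highest without saline replicate 2) and Fbn1 from -0.07 (without saline replicate 4) to 0.44. Without the 10 ml/kg arrays of slide 3, Fn1 was -0.15, Loxl1 -0.03 and Timp2 0. Apart from Mmp16 and Adamts6, none of these was called.

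Replicate numbers did not pair the samples: deviations of same-numbered arrays correlated at -0.641 to 0.705 over 27 pairs, 6 of them over 0.1. With the replicate block the counts were 5 for 10 ml/kg against saline, 4 for 10 against 2 ml/kg, 3 for 10 against 5 ml/kg and 0 otherwise. The shares of all genes called with that block are not given.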
